A study of Mus musculus with 18 samples.

Results

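The comparison set liver miRNAs of mice on HF+CR, 3 libraries, against those of mice on LF, 3 libraries, and asked how far restriction on the high-fat diet left the liver from the low-fat baseline. These are 6 of the 18 libraries of the study. The miRNAs compared were the 351, of 758 listed, that reached at least 5 RPM (reads per 1000000 reads of the library) in at least 3 of the 18 libraries. All groups were wild-type mice of the inbred strain C57BL/6J, placed on their regimens at 5 weeks of age and sampled at 62 weeks. The groups used were HF+CR, HF (3 libraries), which shows where the unrestricted high-fat liver stood, and LF. The names are abbreviations in the labels: HF and LF are taken as high-fat and low-fat diet, CR as restricted calories and Ex as exercise, and the degree of restriction is not analysed here. Whether libraries of a group stem from different animals is not stated either, so the spread behind each p-value is one between libraries and may be technical.

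A miRNA is a short RNA that guides a silencing complex to messenger RNAs, and its seed, bases 2 to 8 from the 5′ end, is the main determinant of which messages it pairs with. Each precursor hairpin yields a 5p and a 3p arm, usually at very different levels. In hepatocytes miRNAs tune lipoprotein assembly, cholesterol export, fatty acid oxidation and insulin signalling. miR-33 lies in an intron of Srebf2, the gene of the transcription factor that switches on cholesterol synthesis. It is known to repress the cholesterol exporter Abca1 and enzymes of fatty acid oxidation.

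The miRNAs the results turn on are printed with the seed in capitals, as RefSeq gives them for GRCm38, so that members that share a seed can be seen to do so. The set opens with both arms of miR-33, then 4 let-7 family members, then 2 pairs that share a seed but differed in opposite directions, then miR-690, which had the widest difference.
miR-33-5p: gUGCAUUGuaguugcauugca
miR-33-3p: cAAUGUUUccacagugcaucac
let-7f-5p: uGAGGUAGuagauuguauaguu
miR-98-5p: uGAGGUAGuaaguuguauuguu
let-7g-5p: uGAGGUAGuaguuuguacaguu
let-7e-5p: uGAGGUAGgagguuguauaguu
miR-99a-3p: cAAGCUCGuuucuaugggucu
miR-99b-3p: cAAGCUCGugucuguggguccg
miR-28a-5p: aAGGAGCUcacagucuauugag
miR-708-5p: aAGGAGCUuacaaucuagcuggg
miR-690: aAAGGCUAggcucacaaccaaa
The mouse miR-33 hairpin is chr15:82198122-82198190 on the plus strand of GRCm38, inside an intron of Srebf2. It is printed once because it carries both arms, here in capitals.
Mir33: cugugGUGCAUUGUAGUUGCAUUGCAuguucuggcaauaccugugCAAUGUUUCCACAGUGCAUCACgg

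The profiles were those of liver in every library. miR-122-5p, the defining miRNA of hepatocytes, held 22.4% to 29.1% of the listed RPM in HF+CR libraries, 20.9% to 24.5% in HF libraries and 21.4% to 29.0% in LF libraries. The RPM steps imply 2.90 to 5.50 megareads (M) on listed miRNAs in HF+CR libraries, 4.05 to 6.36 M in HF libraries and 6.98 to 8.88 M in LF libraries. Every HF+CR library was thus shallower than every LF library, and 3 reads were worth 0.529 to 1.003 RPM in HF+CR libraries and 0.327 to 0.417 RPM in LF libraries. HF+CR 3 stood apart from its group. Its epithelial miRNAs summed to 11682 RPM, against 3578 and 4648 RPM in the other HF+CR libraries, and its leukocyte and Kupffer cell miRNAs summed to 10469 RPM, against 6190 and 4277 RPM. LF 1 was the high library of its own group on both lists, with 8781 RPM and 9133 RPM.

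Between HF+CR and LF livers, 1 of the 351 tested miRNAs (0.285%) differed at an adjusted p under 0.05, and it was higher in HF+CR. The call came from limma on log2(RPM + 1) with Benjamini-Hochberg adjustment over all 351. Before adjustment 60 miRNAs (17.1%) had a p under 0.05, of which 31 were higher (8.83%) and 29 lower (8.26%) in HF+CR. In 54 miRNAs (15.4%) the 3 HF+CR libraries did not overlap the 3 LF libraries, with HF+CR higher in 32 (9.12%) and lower in 22 (6.27%). The differences were spread evenly about 0, with 179 above (51%) and 172 below (49%), and their median was 0.01 on the log2 scale. The 95% interval of the difference lay wholly within 1 log2 unit of 0 for 205 miRNAs (58.4%), and for the remainder a difference beyond that size was not bounded by these libraries. The point estimate itself passed 1 log2 unit in 22 miRNAs, 14 higher and 8 lower in HF+CR. No tested miRNA reached 5 RPM only in HF+CR libraries or only in LF libraries.

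**Figure D1:**
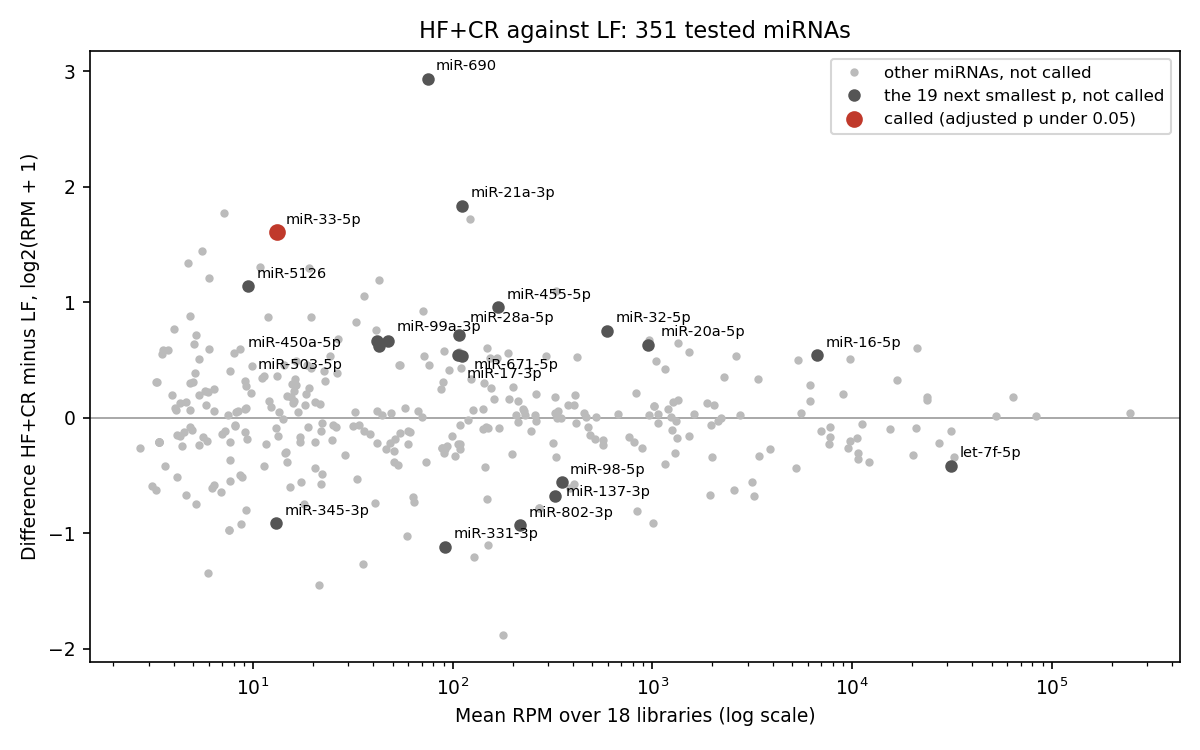
Difference between HF+CR and LF livers on the log2(RPM + 1) scale (y axis) against mean RPM over the 18 libraries (x axis, log scale), 1 point per tested miRNA. The called miRNA, miR-33-5p, is a low-abundance miRNA, and the 10 most abundant lie between −0.42 and 0.17.

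miR-33-5p rose in HF+CR livers. Its level was 19.1, 23.8 and 15.7 RPM in the HF+CR libraries, 13.2, 21.2 and 24.2 RPM in the HF libraries, and 6.35, 5.14 and 5.57 RPM in the LF libraries. All 3 HF+CR libraries were above all 3 LF libraries, and they lay within the range of the HF libraries. The HF+CR mean was 19.5 ± 4.06 RPM and the LF mean 5.69 ± 0.613 RPM (SD, n = 3 each), a ratio of 3.43. On the log2(RPM + 1) scale the difference was 1.60 (SE 0.26, 95% interval 1.05 to 2.16, limma adjusted p = 0.00615). These values stand on 68, 135 and 47 implied reads in HF+CR libraries and on 49, 37 and 51 in LF libraries.

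The unrestricted HF livers averaged 19.5 ± 5.67 RPM of miR-33-5p (SD, n = 3), the same as HF+CR after rounding. HF against LF gave a difference of 1.58 (SE 0.26, limma adjusted p = 0.00715), a comparison that shares its LF libraries with the first. That call was lost without LF 2 (limma adjusted p = 0.0517), HF 2 (0.0611) or HF 3 (0.0783), and with only HF and LF libraries in the fit (0.105). HF+CR minus HF was 0.02, with a 95% interval of −0.54 to 0.58 (limma adjusted p = 0.979), which leaves room for a difference of up to about that size in either direction. Among the remaining groups the mean was 8.83 RPM on HF+Ex, 12.9 RPM on LF+CR and 12.5 RPM on LF+Ex. The 3 LF libraries were the lowest of all 18, the next being an HF+Ex library at 6.68 RPM. The call for HF+CR against LF depended on HF+CR 2: without it the difference was 1.46 and the limma adjusted p 0.0571. It was also lost when only the HF+CR and LF libraries entered the fit, where the difference was the same and the adjusted p 0.127.

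miR-33-3p, the other arm of the hairpin, was low everywhere and gave a different picture. It had 2.52, 4.94 and 5.01 RPM in HF+CR libraries, 5.32, 5.47 and 6.01 RPM in HF libraries, and 4.92, 1.95 and 5.02 RPM in LF libraries. The HF+CR and LF libraries overlapped throughout. The difference was 0.09 with a 95% interval of −0.60 to 0.77 (limma adjusted p = 0.938), on 9, 28 and 15 implied reads in HF+CR libraries and 38, 14 and 46 in LF libraries.

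**Figure D2:**
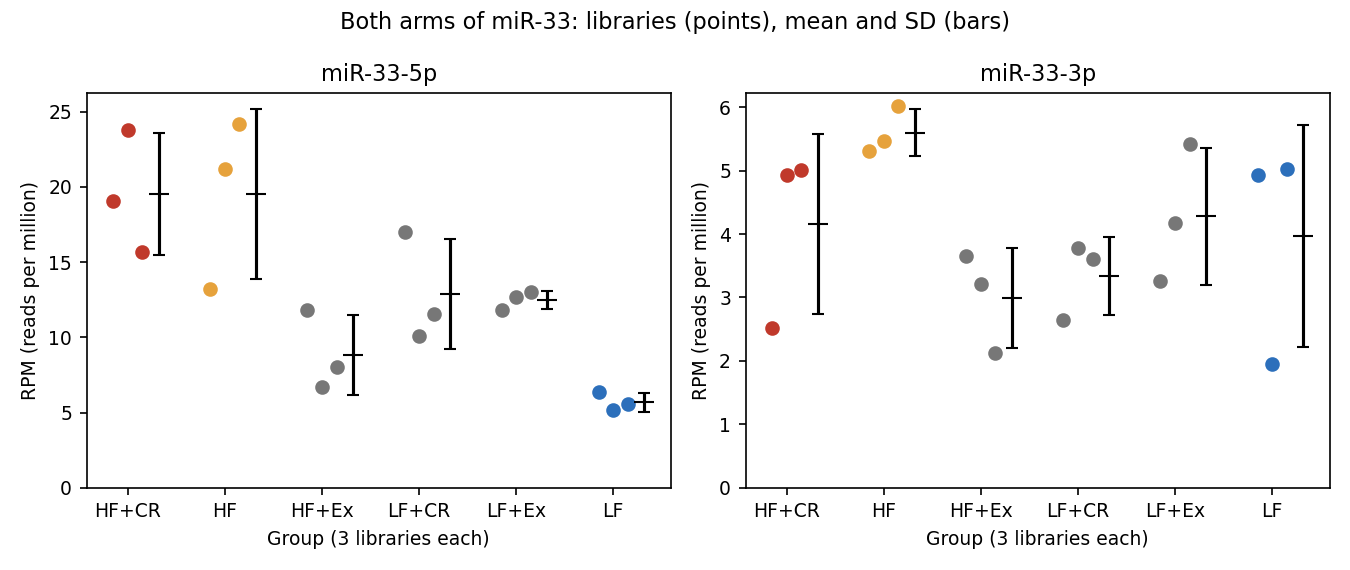
Level of miR-33-5p (left) and miR-33-3p (right) in RPM, with points for the 3 libraries of each group and bars for mean and SD. The HF+CR and HF libraries of miR-33-5p sit between 13.2 and 24.2 RPM, above the LF libraries at 5.14 to 6.35 RPM, while the HF+CR and LF libraries of miR-33-3p overlap.

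The 19 miRNAs with the next smallest p did not pass the adjusted threshold, with limma adjusted p between 0.178 and 0.206. They were picked by the p of HF+CR against LF, so miRNAs that HF+CR livers held at the LF level are not among them. The position of HF is given for these picked miRNAs only and is no test of restriction. For several of them the HF mean lay near the LF mean and the HF+CR mean lay below both. With all libraries no miRNA was called between HF+CR and HF. miR-345-3p, encoded in an intron of Slc25a47, had 9.25, 5.64 and 6.68 RPM in HF+CR libraries, 13.98, 9.04 and 17.6 RPM in HF libraries, and 12.8, 14.6 and 15.2 RPM in LF libraries. All HF+CR libraries were below all LF libraries, whereas HF libraries straddled LF and HF 2 was below HF+CR 1. The HF+CR minus LF difference was −0.91 (95% interval −1.40 to −0.43). miR-331-3p had 44.8, 27.5 and 83.6 RPM in HF+CR libraries, 123, 69.5 and 143 RPM in HF libraries, and 130, 90.8 and 93.3 RPM in LF libraries. The HF+CR libraries were again all below LF, by −1.12 (95% interval −1.85 to −0.39). HF+CR 3 was the closest to LF and lay above HF 2. Without HF+CR 3 the difference was −1.53 and passed the threshold (limma adjusted p = 0.0230).

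miR-802, a liver miRNA that in mice is raised in obesity, showed this order in the group means of both arms. miR-802-3p had 97.5, 115 and 157 RPM in HF+CR libraries, 167, 249 and 302 RPM in HF libraries, and 167, 221 and 336 RPM in LF libraries. Each HF+CR library was below each library of HF and LF, and the HF+CR minus LF difference was −0.93 (95% interval −1.54 to −0.32). The more abundant arm, miR-802-5p, averaged 2210 ± 388 RPM in HF+CR, 3331 ± 724 RPM in HF and 3271 ± 731 RPM in LF livers (SD, n = 3 each), with HF+CR and LF overlapping and a difference of −0.55 (limma adjusted p = 0.288). miR-137-3p, best known from neurons, followed the same order with 256, 298 and 203 RPM in HF+CR libraries, 335, 358 and 416 RPM in HF libraries, and 350, 504 and 360 RPM in LF libraries. Its HF+CR libraries were below all HF and LF libraries, and its difference from LF was −0.68 (95% interval −1.14 to −0.22).

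A further group had HF+CR levels close to HF and apart from LF, as miR-33-5p did. miR-450a-5p, from an X-linked cluster with miR-322 and miR-503, had 49.3, 51.8 and 48.8 RPM in HF+CR libraries, 46.0, 65.0 and 42.4 RPM in HF libraries, and 31.1, 31.4 and 30.9 RPM in LF libraries. HF+CR and HF libraries were all above LF, and HF+CR minus LF was 0.67 (95% interval 0.22 to 1.11). miR-32-5p, from an intron of Tmem245, had 792, 689 and 680 RPM in HF+CR libraries, 631, 999 and 711 RPM in HF libraries, and 610, 402 and 316 RPM in LF libraries, again without overlap, with a difference of 0.75 (95% interval 0.21 to 1.29). miR-503-5p, a brake on cell division, had 39.8, 39.7 and 58.2 RPM in HF+CR libraries, 48.2, 64.5 and 49.6 RPM in HF libraries, and 33.8, 27.0 and 26.8 RPM in LF libraries. HF+CR libraries were all above LF and the difference was 0.62 (95% interval 0.16 to 1.08). miR-5126 averaged 12.6 ± 9.23 RPM in HF+CR, 10.5 ± 0.945 RPM in HF and 4.40 ± 1.06 RPM in LF livers (SD, n = 3 each), a difference of 1.14 without overlap, with HF+CR 3 the highest at 23.1 RPM. HF+CR 3 was also the shallowest of these libraries. miR-5126 is 1 of the entries, described below, that may hold fragments of other RNAs.

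In the rest, HF lay between HF+CR and LF or the libraries of HF spread widely. miR-28a-5p, from an intron of Lpp, had 149, 168 and 132 RPM in HF+CR libraries, 116, 119 and 101 RPM in HF libraries, and 98.4, 75.3 and 99.0 RPM in LF libraries. The 3 groups did not overlap, and HF+CR minus LF was 0.72 (95% interval 0.29 to 1.15). miR-21a-3p, the minor arm of miR-21a, had 115, 201 and 193 RPM in HF+CR libraries, 94.9, 172 and 80.2 RPM in HF libraries, and 103, 31.8 and 28.4 RPM in LF libraries. LF 1 was near the lowest HF+CR library, and the difference of 1.83 had a 95% interval of 0.60 to 3.07. miR-455-5p had 357, 320 and 111 RPM in HF+CR libraries, 160, 226 and 166 RPM in HF libraries, and 121, 125 and 113 RPM in LF libraries. HF+CR 3 lay below the LF range while the other HF+CR libraries were far above it: the difference was 0.96 with all libraries and 1.49 without HF+CR 3 (limma adjusted p = 0.00230). miR-671-5p, which directs cleavage of the circular RNA Cdr1as, averaged 151 ± 27.3 RPM in HF+CR, 131 ± 14.3 RPM in HF and 103 ± 5.65 RPM in LF livers (SD, n = 3 each), without overlap between HF+CR and LF and with a difference of 0.53.

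**Figure D3:**
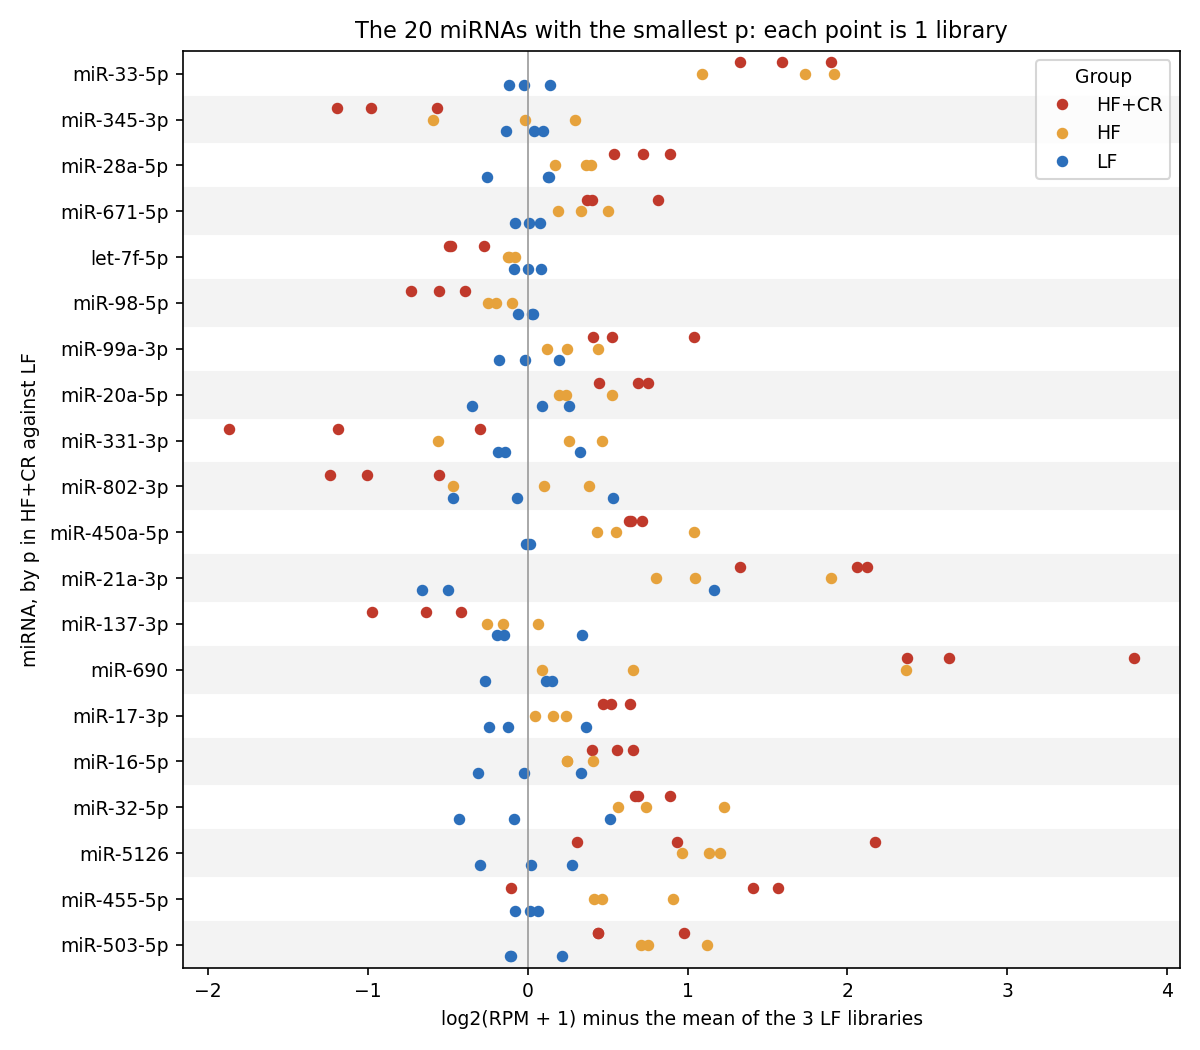
The 20 miRNAs with the smallest p in HF+CR against LF (rows), each library as a point on log2(RPM + 1) minus the mean of the 3 LF libraries (x axis), with HF+CR above HF above LF in each row. HF points lie near HF+CR for miR-33-5p and miR-450a-5p and near LF for miR-802-3p. For miR-345-3p the lowest HF point lies within the HF+CR range.

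The let-7 family, whose members restrain growth programmes and insulin signalling, had mostly lower levels in HF+CR livers. Of its 16 tested members 13 were below LF and 3 above, with a median of −0.24 against 0.01 for all 351. None was called, 5 had an unadjusted p under 0.05 in the lower direction (8.26% of all tested), and 4 were below LF without overlap (6.27% of all tested). Above LF without overlap there was 1 (9.12% of all tested). The 16 hold 15 distinct profiles, let-7a-1-3p and let-7c-2-3p having the same difference. Among the 9 that carry the seed GAGGUAG, 8 were below LF. let-7f-5p, the most abundant of the 4 printed members, had 25064, 25208 and 29136 RPM in HF+CR libraries, 33376, 32436 and 32356 RPM in HF libraries, and 35313, 37240 and 33196 RPM in LF libraries. Every HF+CR library was below every HF and LF library, and the difference from LF was −0.42 (95% interval −0.67 to −0.16, limma adjusted p = 0.178). miR-98-5p, which lies beside a let-7f copy in Huwe1 on the X chromosome, averaged 291 ± 34.0 RPM in HF+CR, 378 ± 20.3 RPM in HF and 428 ± 14.9 RPM in LF livers (SD, n = 3 each) and differed by −0.56 without overlap. let-7g-5p averaged 18438 ± 1791 RPM in HF+CR, 19762 ± 605 RPM in HF and 22950 ± 690 RPM in LF livers (SD, n = 3 each), a difference of −0.32 without overlap.

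The family did not move as a block across diets. let-7e-5p had 572, 411 and 1185 RPM in HF+CR libraries, 533, 559 and 482 RPM in HF libraries, and 1483, 927 and 1085 RPM in LF libraries. HF+CR 3 sat within the LF range and the other HF+CR libraries beside HF, so the difference from LF was −0.81 with all libraries and −1.24 without HF+CR 3 (limma adjusted p = 0.0389). let-7a-5p averaged 25764 ± 4296 RPM in HF+CR, 26202 ± 1367 RPM in HF and 29723 ± 2128 RPM in LF livers (SD, n = 3 each), with overlap. The family counts were 2 above and 14 below, with a median of −0.27, when HF+CR 3 and LF 1 were left out. When HF+CR 2 and LF 2 were left out, they were 4 above and 12 below, with a median of −0.18. Mature let-7 sequences differ by few bases, how reads that fit several members were assigned is not given in the sources used here, and single let-7 values are uncertain to that extent. The same holds for the miR-378, miR-148 and miR-103 families.

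In the miR-17-92 cluster, transcribed from Mir17hg and known for driving cell division, 7 of 9 tested members were above LF with a median of 0.31. Its summed level overlapped, at 14883, 12201 and 13170 RPM in HF+CR libraries and 15686, 14210 and 12131 RPM in LF libraries. None was called, and 3 were higher without overlap (9.12% of all tested). miR-20a-5p had 1375, 1439 and 1162 RPM in HF+CR libraries, 1006, 1231 and 975 RPM in HF libraries, and 1018, 906 and 670 RPM in LF libraries, and HF+CR was above LF throughout, by 0.63 (95% interval 0.23 to 1.04). miR-17-3p averaged 144 ± 8.77 RPM in HF+CR, 109 ± 7.38 RPM in HF and 100.2 ± 23.7 RPM in LF livers (SD, n = 3 each), a difference of 0.54. The abundant miR-19b-3p ran against these, at 7779 ± 560 RPM in HF+CR, 6934 ± 571 RPM in HF and 9141 ± 1159 RPM in LF livers (SD, n = 3 each). It is encoded in Mir17hg and also at another locus on the X chromosome, and its RPM pools both. Of 9 tested members of the X-linked cluster of miR-322, miR-503 and miR-450, 5 were above LF and 4 below, with a median of 0.06. None was called, and 4 were higher without overlap (9.12% of all tested), among them miR-351-5p at 0.57. Without HF+CR 2 and LF 2 the count was 4 above and 5 below, with a median of −0.07. Its most abundant member, miR-322-5p, had a difference of −0.24 and overlapped LF.

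Members that share a seed did not always differ from LF in the same direction. miR-99a-3p had 79.3, 50.8 and 55.1 RPM in HF+CR libraries and 37.6, 33.4 and 43.6 RPM in LF libraries, a difference of 0.66 without overlap. miR-99b-3p, with the same seed AAGCUCG, had 4.76, 3.17 and 11.4 RPM in HF+CR libraries and 19.6, 8.34 and 9.49 RPM in LF libraries, a difference of −0.92 with overlap. It lies in Spaca6 with let-7e-5p and miR-125a-5p, which differed by −0.81 and −0.91. None of these was called with all libraries, and whether their differences share a source at that locus was not tested. miR-28a-5p was above LF by 0.72, whereas miR-708-5p, which carries the same seed AGGAGCU, had 3.08, 2.47 and 7.69 RPM in HF+CR libraries and 19.3, 8.62 and 9.38 RPM in LF libraries, a difference of −1.35 without overlap (limma adjusted p = 0.369). Among 3 tested members with the seed CAGUGCA, miR-148a-3p was above LF and the others below, with a range of −0.34 to 0.61. miR-16-5p, a brake on the cell cycle, led the 5 members with the seed AGCAGCA at 8899, 9534 and 7984 RPM in HF+CR libraries and 7608, 5961 and 4882 RPM in LF libraries. It was above LF without overlap by 0.54, and the range within that seed was −0.24 to 0.54. A RefSeq sequence was at hand for 288 of the 351 tested miRNAs.

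Among miRNAs known for lipid and sterol handling, 13 of 21 tested were above LF and 8 below, with a median of 0.04, and miR-33-5p was the member called. Without HF+CR 3 and LF 1 the count was 11 above and 10 below, and without HF+CR 2 and LF 2 it was 10 above and 11 below. miR-148a-3p, which represses the LDL receptor and Abca1, had 26814, 20543 and 23277 RPM in HF+CR libraries, 28463, 20913 and 22733 RPM in HF libraries, and 15739, 18107 and 12748 RPM in LF libraries. HF+CR and HF were all above LF, and HF+CR minus LF was 0.61 (95% interval 0.15 to 1.06, limma adjusted p = 0.211). miR-30c-5p, which lowers lipoprotein assembly through Mttp, averaged 6730 ± 1699 RPM in HF+CR, 5174 ± 622 RPM in HF and 4691 ± 499 RPM in LF livers (SD, n = 3 each), a difference of 0.50 without overlap. miR-34a-5p, which represses Sirt1, had 1176, 596 and 2940 RPM in HF+CR libraries, 2501, 3259 and 2341 RPM in HF libraries, and 3493, 1293 and 1831 RPM in LF libraries. The groups overlapped, HF+CR 3 and LF 1 being the high libraries of their groups, and the difference of −0.67 had a 95% interval of −1.73 to 0.39. It was −1.27 without HF+CR 3, −0.27 without LF 1, −0.88 without both, and −0.12 without HF+CR 2, and none of these passed the threshold. HF+CR minus HF was −1.07 (limma adjusted p = 0.318) with all libraries and −1.67 without HF+CR 3, where it passed (limma adjusted p = 0.0468).

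miR-205-5p, an epithelial miRNA also linked to lipid metabolism in mouse liver, had a higher level in each HF library than in any HF+CR or LF library. It had 11.5, 8.64 and 56.2 RPM in HF+CR libraries, 73.7, 103 and 63.2 RPM in HF libraries, and 18.4, 10.1 and 27.1 RPM in LF libraries. HF+CR and LF overlapped, and HF+CR 3 was the high library of its group. HF+CR minus LF was 0.06 with a wide 95% interval of −1.42 to 1.54, and without HF+CR 3 it was −0.73. HF minus LF was 2.12 (limma adjusted p = 0.307) and HF+CR minus HF was −2.06 (limma adjusted p = 0.170), and neither passed the threshold with all libraries. Without HF+CR 3, HF+CR minus HF was −2.85 and passed it (limma adjusted p = 0.0293).

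Among miRNAs known for insulin and glucose, 7 of 25 tested were above LF and 18 below, with a median of −0.20, and miR-33-5p, also on this list, was the member called. At an unadjusted p under 0.05 there were 5 lower (8.26% of all tested) and 2 higher (8.83%). Without overlap there were 2 lower (6.27% of all tested) and 3 higher (9.12%). The list shares let-7a-5p, let-7b-5p, let-7c-5p and let-7f-5p with the let-7 list and miR-451a with the erythroid list, so these counts are not separate. miR-103-3p, which dampens insulin sensitivity and lies in introns of Pank genes, had 8396, 10991 and 8377 RPM in HF+CR libraries, 9744, 17184 and 13355 RPM in HF libraries, and 12178, 11615 and 11519 RPM in LF libraries. HF+CR was below LF without overlap, by −0.36 (limma adjusted p = 0.288), and HF was spread on both sides of LF. miR-107-3p, its near-identical relative, averaged 4105 ± 1086 RPM in HF+CR, 6816 ± 1356 RPM in HF and 5450 ± 367 RPM in LF livers (SD, n = 3 each), a difference of −0.44. In the miR-378 family 3 of 4 members were below LF with a median of −0.44, and miR-378b, at 9.25, 14.6 and 14.4 RPM in HF+CR libraries, 24.3, 26.2 and 24.0 RPM in HF libraries, and 14.8, 16.8 and 28.2 RPM in LF libraries, was below both without overlap. miR-22-3p went the other way, at 12116 ± 1681 RPM in HF+CR, 11729 ± 2401 RPM in HF and 8503 ± 1132 RPM in LF livers (SD, n = 3 each), a difference of 0.51 without overlap between HF+CR and LF.

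**Figure D4:**
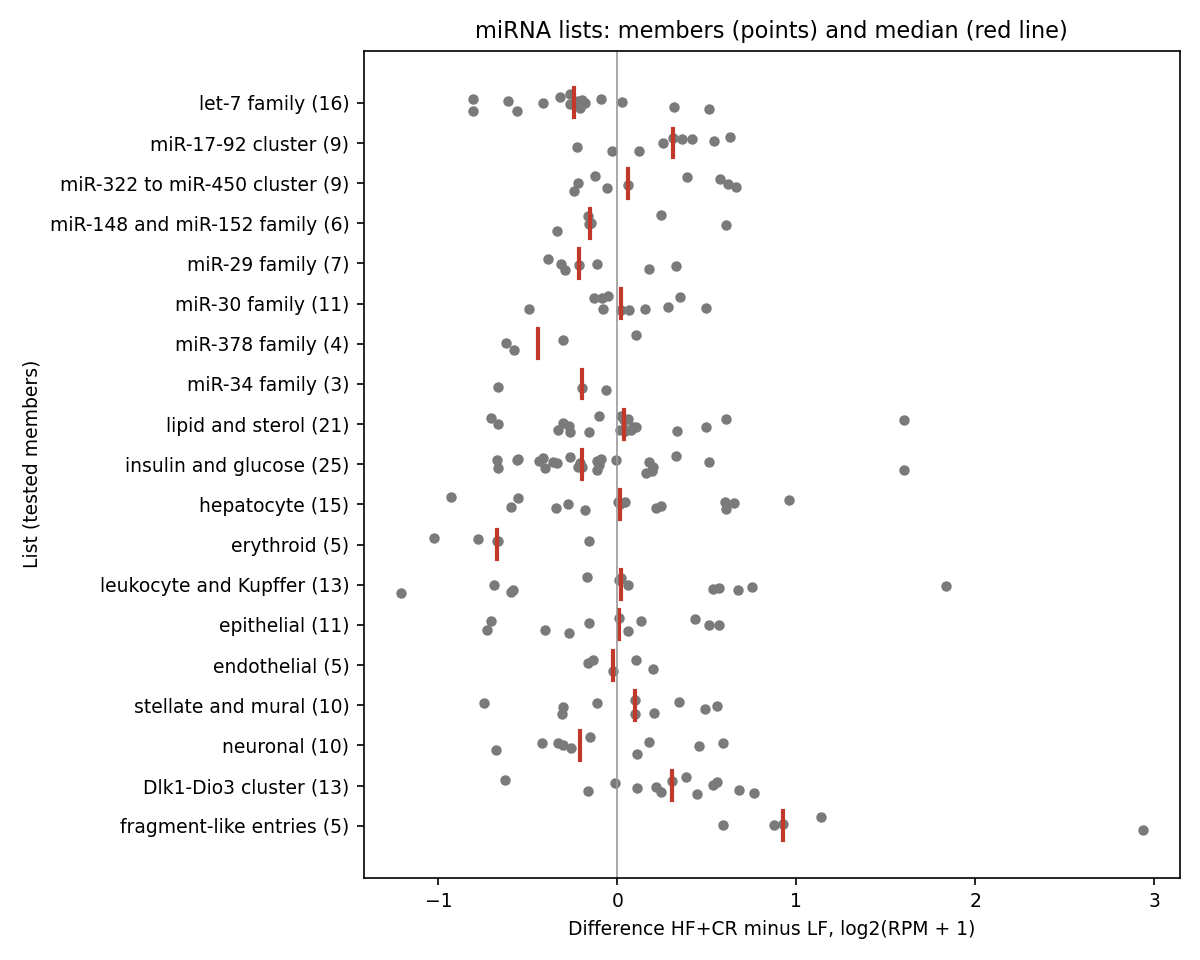
Difference between HF+CR and LF livers on the log2(RPM + 1) scale (x axis) for the tested members (points) of each miRNA list (rows, with the number tested), the red line being the list median. The let-7 median lies at −0.24 and the miR-17-92 median at 0.31, and the lipid and sterol list centres on 0.04 with miR-33-5p far to the right.

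The hepatocyte list had a median near 0, with members on both sides. Of 15 tested members 9 were above LF and 6 below, with a median of 0.01, and 2 were higher (8.83% of all tested) and 3 lower (8.26%) at an unadjusted p under 0.05. miR-122-5p had 268712, 282043 and 216952 RPM in HF+CR libraries, 236519, 201007 and 227759 RPM in HF libraries, and 206787, 259278 and 281284 RPM in LF libraries. The groups overlapped, and HF+CR minus LF was 0.04 with a 95% interval of −0.24 to 0.32. The 10 most abundant miRNAs made up 63.7% of the RPM over all libraries, and beside let-7f-5p the widest difference among them was that of miR-192-5p, at −0.34 (95% interval −0.66 to −0.02). miR-192-5p averaged 26235 ± 5906 RPM in HF+CR, 34609 ± 442 RPM in HF and 32986 ± 5538 RPM in LF livers (SD, n = 3 each), whereas miR-194-5p differed by 0.01. miR-194-5p is encoded beside miR-192 on chromosome 19 and also on chromosome 1, and its RPM pools both loci.

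Markers of other cell types are given as values, since liver was sequenced whole. In bulk tissue fewer cells of a type and less RNA per cell cannot be told apart. All 5 erythroid miRNAs were below LF, with a median of −0.68, and none was called. miR-144-5p had 51.3, 52.5 and 30.1 RPM in HF+CR libraries, 34.2, 44.0 and 70.8 RPM in HF libraries, and 135, 65.7 and 79.8 RPM in LF libraries, a difference of −1.03 without overlap between HF+CR and LF. The erythroid list summed to 4323, 5665 and 2795 RPM in HF+CR libraries, 3394, 6670 and 5706 RPM in HF libraries, and 8302, 3656 and 6915 RPM in LF libraries, so that the sums overlapped. Without HF+CR 3 and LF 1 the erythroid median was −0.44, with 4 below and 1 above, and without HF+CR 2 and LF 2 it was −1.24.

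The leukocyte and Kupffer cell list had 8 of 13 members above LF and a median of 0.02, and the epithelial list 6 of 11 and 0.01. Without HF+CR 3 and LF 1, the high libraries on both lists, the leukocyte list had 6 above and 7 below with a median of −0.03, and the epithelial list 4 above and 7 below with a median of −0.21. miR-142-3p, carried by blood cells, had 3296, 2061 and 4824 RPM in HF+CR libraries, 3036, 4377 and 3403 RPM in HF libraries, and 4247, 1345 and 1883 RPM in LF libraries, with wide overlap. miR-146a-5p, a feedback inhibitor of NF-κB signalling, had 94.4, 25.2 and 143 RPM in HF+CR libraries, 132, 190 and 168 RPM in HF libraries, and 187, 134 and 175 RPM in LF libraries. HF+CR 2 was far below the rest, and the difference from LF was −1.21 (95% interval −2.41 to −0.01, limma adjusted p = 0.290). It was −0.49 without HF+CR 2 and −1.72 without HF+CR 3, and neither passed the threshold. The part of blood and epithelial cells in the differences above was not tested.

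miR-690 had the widest difference of all, at 2.94 (SE 0.96, 95% interval 0.90 to 4.97, limma adjusted p = 0.192). It had 299.6, 111 and 134 RPM in HF+CR libraries, 22.03, 110 and 33.1 RPM in HF libraries, and 23.1, 16.96 and 22.5 RPM in LF libraries. HF+CR was above LF throughout, and HF 2 reached the HF+CR level. It stands, with miR-5126, on a list of 5 tested entries that may hold fragments of other RNAs. Another is miR-5121, whose annotated position lies within the small nucleolar RNA gene Snord33. All 5 were above LF with a median of 0.92, and 3 did not overlap it (9.12% of all tested). A separate list of miRNAs that overlap small nucleolar RNAs went the other way. Of its 8 tested members 2 were above LF and 6 below, with a median of −0.15. The fragment-like list summed to 496, 206 and 341 RPM in HF+CR libraries, 101, 276 and 123 RPM in HF libraries, and 109, 87.4 and 106 RPM in LF libraries. The implied depth was 3.46, 5.50 and 2.90 M reads in those HF+CR libraries, 6.36, 4.05 and 6.28 M in the HF libraries, and 7.47, 6.98 and 8.88 M in the LF libraries. HF+CR 1 and HF 2 had the highest sums of their groups. The part of depth or RNA quality in this was not tested.

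**Figure D5:**
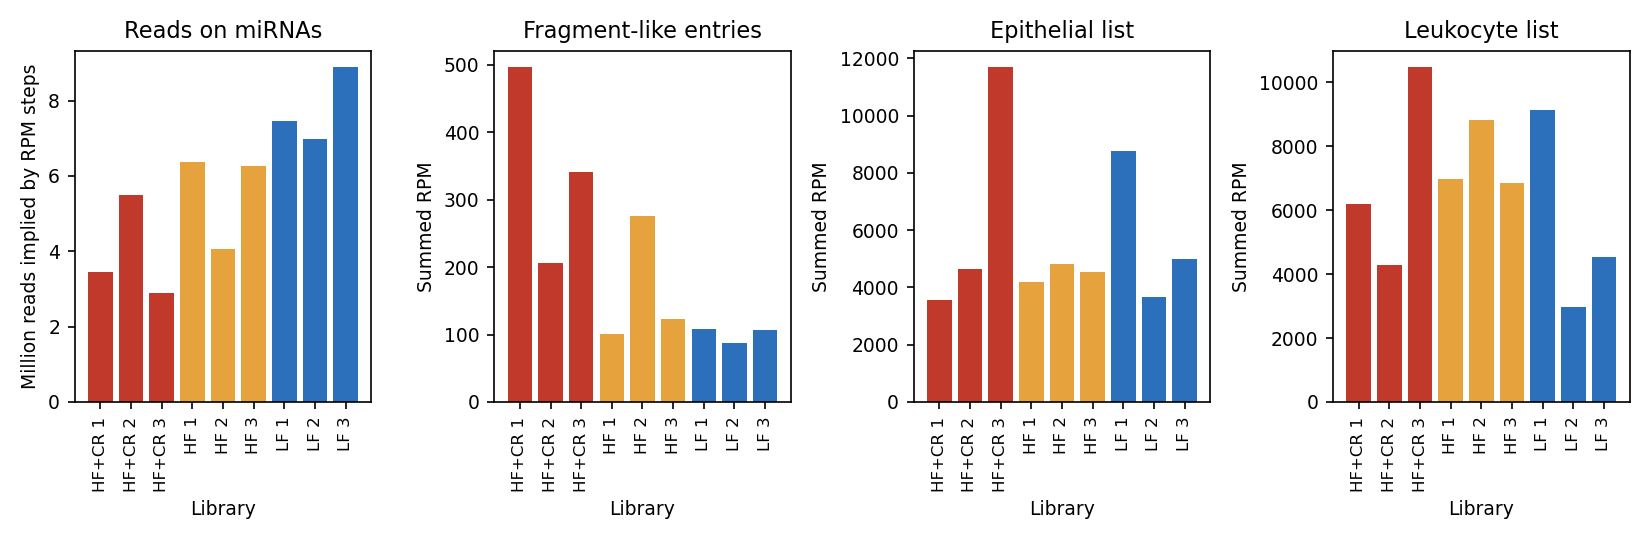
Bars for each HF+CR, HF and LF library, starting at 0: reads on miRNAs implied by the RPM steps, in megareads (M), and summed RPM of the fragment-like, epithelial and leukocyte lists. HF+CR libraries hold fewer reads than LF libraries (2.90 to 5.50 M, against 6.98 to 8.88 M) and overlap the HF libraries (4.05 to 6.36 M), and HF+CR 3 and LF 1 are the high libraries of their groups on the epithelial and leukocyte lists.

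Set beside each other, the comparisons with HF place these results. HF against LF gave 1 call (0.285%), miR-33-5p, with 41 miRNAs (11.7%) at an unadjusted p under 0.05 and a median difference of 0.05. HF+CR against HF gave 0 calls (0%) by limma and 0 by voom weights on implied reads, with 53 (15.1%) at an unadjusted p under 0.05 and a median of −0.05. This count of 0 depended on HF+CR 3: without it limma called 22 miRNAs, 7 higher and 15 lower in HF+CR, and without HF+CR 3 and LF 1 it called 25. Leaving out HF 1 gave 3 calls and leaving out HF+CR 2 gave 1. The comparisons share libraries pairwise and are not independent. The 6 miRNAs with the smallest p in HF against LF were miR-33-5p, miR-503-5p, miR-210-3p, let-7e-5p, miR-32-5p and miR-450a-5p. miR-210-3p, the classic hypoxia-induced miRNA, had 345, 318 and 259 RPM in HF+CR libraries, 292, 561 and 384 RPM in HF libraries, and 200.1, 195 and 240.0 RPM in LF libraries. HF+CR and HF were above LF throughout, and HF+CR minus LF was 0.53 (95% interval 0.03 to 1.03, limma adjusted p = 0.263). For these 6 the HF+CR minus HF differences ran from −0.38 to 0.32 and the smallest limma adjusted p was 0.451, that of miR-210-3p.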

How the data were processed

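Small RNA from frozen mouse liver was extracted with Trizol, enriched for small RNA and sequenced, per the labels. The deposited values are RPM for 758 mature miRNAs, made by the authors. Per the submitters' processing notes the genome build was mm10. For aligner, counting tool, annotation release and multi-mapping rules the answer is: not given in the sources used here. RPM are shares, so each fold is relative to all other miRNAs of its library. The smallest listed value of each library was taken as 2 reads, which set the step of 1 read. All values were whole multiples of that step (tolerance 0.001), and the depths are implied by it.

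Groups came from the sample titles. The 351 miRNAs with at least 5 RPM in at least 3 of 18 libraries were fitted together over all 18 libraries as log2(RPM + 1) with limma 3.58.1 in R 4.3.3 (1 coefficient per group, eBayes with trend, two-sided, Benjamini-Hochberg over 351, called at 0.05). The pseudocount understates folds of low miRNAs. Intervals are 95%. Reads carry no molecular identifiers, so counting is not of independent molecules. As a check of the code, the fit was run on simulated counts with the same dispersion for all miRNAs and no outlying library. These settings differ from the real libraries, so the simulation is no support for the calls.

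Text names the called miRNAs, those with the smallest p to make 20, list members, the 10 most abundant, and the 6 with the smallest p in HF against LF. miRNAs and lists were chosen with earlier results of these data known. Same-numbered HF+CR and LF libraries did not pair. Alternatives covered pseudocount, filter, scaling, samples in the fit, trend, replicate block, identical miRNAs, voom and left-out libraries. Sequences and positions came from RefSeq (GRCm38), hosts from the GENCODE annotation of that build, figures from matplotlib 3.10.9.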

Additional observations from a re-analysis of the deposited data

How the results depend on the processing

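Of the alternatives run, the call of miR-33-5p in HF+CR against LF (1 miRNA) was kept with a pseudocount of 5 RPM, no filter, median-of-ratios scaling, no trend, identical miRNAs counted once, voom weights on implied reads (added after seeing the data) and HF+CR 1 and LF+CR 1 left out. With a filter of 50 RPM, which drops miR-33-5p, there were 0 calls in HF+CR against LF and 0 in HF against LF, and with only the compared groups in the fit 0 and 0. Leaving out LF 1 and HF+CR 3 gave 2 calls in HF+CR against LF (miR-455-5p added), 7 in HF against LF and 25 in HF+CR against HF; leaving out LF 2 and HF+CR 2 gave 0, 0 and 0. Median-of-ratios scaling gave 2 in HF against LF (miR-503-5p added). Leaving out 1 library at a time gave 0 (without HF+CR 2) to 6 calls (without HF+CR 3) in HF+CR against LF, 0 (without LF 2, HF 2 or HF 3) to 2 in HF against LF and 0 to 22 (without HF+CR 3) in HF+CR against HF. The 6 calls were miR-33-5p and miR-455-5p, higher, and miR-669a-3p, let-7e-5p, miR-331-3p and miR-669o-3p, lower, the miR-669 pair having identical values. The replicate block gave 1, 1 and 0 calls; same-numbered HF+CR and LF libraries correlated at −0.42, 0.61 and −0.01 in their deviations, and not every library correlated best with its own number.

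Directions turned for miRNAs near 0 in HF+CR against LF. With voom miR-205-5p was −0.12. Without LF 1 and HF+CR 3, miR-29c-3p was 0.080, miR-21a-5p −0.035 and miR-205-5p −0.69. Without LF 2 and HF+CR 2, miR-194-5p was −0.089, miR-33-3p −0.38 and, in HF+CR against HF, miR-33-5p −0.12; without HF+CR 1 and LF+CR 1, miR-194-5p was −0.052. With 1 library left out the ranges were −0.087 to 0.16 for miR-122-5p, −0.15 to 0.24 for miR-194-5p, −0.25 to 0.34 for miR-33-3p, −0.73 to 0.55 for miR-205-5p, −0.22 to 0.19 for miR-21a-5p, −0.062 to 0.38 for miR-101b-3p, −0.23 to 0.062 for miR-29c-3p and −0.22 to 0.19 for miR-33-5p in HF+CR against HF. The causes were not tested. The planned edgeR test was not run, because on the implied reads no value of 1 read is listed. With 3 libraries a group, the median 95% interval was 1.20 log2 units wide.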

Other observations

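miRNAs of the imprinted Dlk1-Dio3 region, a large cluster expressed mainly in embryo and brain, were low in liver, with 13 of 48 listed members tested. Of these, 10 were above LF in HF+CR and 3 below, with a median of 0.31, and none was called or free of overlap. miR-136-5p had 75.9, 23.3 and 39.4 RPM in HF+CR libraries, 17.6, 12.1 and 18.7 RPM in HF libraries, and 36.8, 14.7 and 29.8 RPM in LF libraries. miR-127-3p had 44.6, 21.7 and 52.1 RPM in HF+CR libraries, 20.1, 8.33 and 18.5 RPM in HF libraries, and 39.0, 13.5 and 30.3 RPM in LF libraries. For both, every HF library was below every HF+CR library, while HF+CR and LF overlapped. For miR-592-5p, chosen after its values were seen, every HF+CR library was above every HF and LF library, with 34.7, 25.6 and 26.4 RPM in HF+CR libraries, 12.3, 3.57 and 6.17 RPM in HF libraries, and 6.35, 24.3 and 8.40 RPM in LF libraries.

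Several low miRNAs of other tissues were high in single libraries; they too were chosen after their values were seen. HF+CR 2 held 66.4 RPM of miR-741-3p, 56.7 RPM of miR-881-3p and 52.7 RPM of miR-880-3p, testis miRNAs of the X chromosome, where the other HF+CR libraries had at most 5.68 RPM and the LF libraries at most 5.42 RPM of any of them. It also held 163 RPM of the neuronal miR-124-3p, against 9.53 and 1.34 RPM in the other HF+CR libraries. LF libraries had 3.63, 46.0 and 11.8 RPM of miR-124-3p. The neuronal list as a whole did not share this: of 10 tested members 4 were above LF and 6 below, with a median of −0.21. That list summed to 1587 RPM in HF+CR 2 and to 1523, 1745 and 1593 RPM in LF libraries. HF+CR 1 held 62.5 RPM of the pancreatic miR-216a-5p, against 2.29 and 1.67 RPM in the other HF+CR libraries. LF libraries had 0.778, 4.17 and 3.06 RPM of miR-216a-5p. Of 3 tested pancreatic miRNAs 2 were above LF and 1 below. miR-582-5p had the widest decrease, −1.88 (limma adjusted p = 0.41), with 7.85 and 14.1 RPM in HF+CR 1 and HF+CR 2 but 293 RPM in HF+CR 3, 176 to 338 RPM in HF libraries, and 389, 41.4 and 117 RPM in LF libraries. Leaving out 1 library at a time moved this difference between −0.91 without HF+CR 1 and −3.44 without HF+CR 3. Its other arm, miR-582-3p, followed with 1.12, 2.47 and 37.8 RPM in HF+CR libraries and 43.9, 5.14 and 20.1 RPM in LF libraries. miR-1a-3p, a muscle miRNA, had 43.4, 12.7 and 20.4 RPM in HF+CR libraries, 13.2, 4.28 and 18.2 RPM in HF libraries, and 19.96, 132 and 64.2 RPM in LF libraries, with overlap.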
